A study of Rattus norvegicus with 22 samples.

Results

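Ribosome biogenesis was followed through 51 genes that encode nucleolar proteins and assembly factors, taken as a list of named genes. A gene was read from the probe set that carried its symbol alone, and from the brightest such probe set where there were several. Of the 51, 48 were measured this way, among 18166 genes in all. Dkc1 and Rrp12 matched no probe set with a single symbol, and Npm1 shared its probe set with the pseudogene Npm1-ps9, so these 3 have no value here.

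The livers came from female Crl:CD(SD) rats, an outbred Sprague-Dawley stock, aged 12 weeks. There were 10 treated livers and 12 vehicle livers, each hybridised to 1 Affymetrix array. The 10 treated rats received a single intraperitoneal dose of 50 mg/kg GSK932121A, which the series title names as an inhibitor of complex III of the mitochondrial respiratory chain, and their livers were taken after 5 hours. The vehicle rats received the same volume, 10 mL/kg, of the formulation without the compound, which held mannitol, hydroxypropylmethylcellulose and sodium dodecyl sulphate in sterile water. No time is given for the vehicle group. Of 12 rats dosed per group, the submitters left out 2 treated animals with low plasma exposure, so the treated group was selected on exposure. Medians of single arrays ran from 4.73 to 4.85 in log2 units, and arrays correlated with each other at 0.971 to 0.99.

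Ribosomes are built in the nucleolus. RNA polymerase I transcribes a long precursor RNA, small nucleolar RNPs (snoRNPs) methylate and pseudouridylate it, and the small subunit processome folds and cleaves its 5′ part, while other factors assemble the large subunit. Synthesis of these factors is known to follow growth signals, and MYC is a well known activator of many of their genes through the E-box, the DNA element CACGTG.

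The E-box was therefore looked for in the members' promoters, and the matches are shown first because the results below refer back to them. RefSeq (build GRCr8) gave promoter windows, from 250 bases before to 50 bases after the annotated start, for 48 of the 51 genes (49 windows). Rrs1, Wdr43 and Bop1 are named only. CACGTG reads the same on both strands. It occurred in 15 of 49 windows (30.6%), against 7.68% of 16050 windows of the genes tested and 6.42% of all 33469 windows. Each line below gives up to 30 bases around a match, 5′ to 3′ on the gene's strand, with the E-box in capitals. The first set belongs to 9 members that were higher in treated livers.
Fbl, chr1:92597416-92597445, plus strand: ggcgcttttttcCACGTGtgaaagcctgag
Gnl3, chr16:6219790-6219819, minus strand: agttccagttcgCACGTGgcgcccgagacg
Ltv1, chr1:9398601-9398630, minus strand: gacctgtctaccCACGTGtagagctgccgg
Mybbp1a, chr10:57555290-57555319, plus strand: gcagtttctacaCACGTGtgcgagcacagg
Mybbp1a, chr10:57555445-57555474, plus strand: gtctttcgagccCACGTGtttggttcagca
Noc3l, chr1:245997673-245997702, minus strand: ttgagctctgggCACGTGtgtgtttcctac
Tsr1, chr10:60258798-60258827, plus strand: gtttactcggtgCACGTGggcagttagaat
Utp18, chr10:79335830-79335859, minus strand: gtgagtgtcggtCACGTGgttcgaggcagc
Utp18, chr10:79335737-79335766, minus strand: gcagtggggctcCACGTGaacgtctgcgtt
Utp20, chr7:25102959-25102988, minus strand: cagcactagctaCACGTGagaaaaagcaga
Wdr75, chr9:55395060-55395089, plus strand: tcactctttctaCACGTGttttaatttgac

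The second set belongs to 4 members that did not pass the test, and is shown because the same letters occur there.
Ddx18, chr13:35295968-35295997, minus strand: ctcggaactgcgCACGTGcatctgtcgctc
Ebna1bp2, chr5:137433552-137433581, plus strand: gcgtcttgctggCACGTGgagtggcagccg
Nop2, chr4:159618992-159619015, plus strand: cttccccaagtgCACGTGgagcgg
Pes1, chr14:83074284-83074313, plus strand: ccctaagcggggCACGTGcggtaggaagta

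Mybbp1a and Utp18 held a pair of matches each. Dkc1 and Rrp12, which were not measured, held the remaining ones. A match is a run of letters in this window and says nothing of binding.

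Many ribosome biogenesis genes were higher in livers of GSK932121A-treated rats. Of 48 measured members, 27 rose at an adjusted p under 0.05 (56.25%), while 5.31% of all genes tested rose. The members were chosen with earlier results of these data known, so this comparison of shares is a description and not a test. No member fell, by limma's adjusted p, at an unadjusted p under 0.05 (0 members) or by Welch's test (0 members), while 7.05% of all genes fell. The median log2 difference of the 48 members was 0.26, and that of all genes was -0.0088. Differences ran from -0.10 for Imp3 to 0.81 for Wdr43, and 44 of 48 lay above 0, as did 8647 of all 18166 genes. The changes were small: the median fold among the 27 was 1.33, and 5 exceeded 1.5-fold. Of the 21 members that did not pass, 17 had a difference above 0 and 4 below 0.

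The groups overlapped for nearly every member. The treated and vehicle ranges were fully apart, with all 10 treated arrays on top, for 1 member, Tsr1, and for 0.457% of all genes. At least 7 treated arrays exceeded the vehicle range for 17 members, and for 2.84% of all genes. The call of 19 of the 27 was lost when 5 surrogate variables (estimated hidden factors) entered the fit, which left 9 of 48 members that rose (18.75%), 8 of them among the 27. In that fit 334 of 18166 genes rose (1.84%), and the members' median log2 difference was 0.186. Together these variables account for 45.5% of the variance of the group label. In bulk tissue, a change in RNA per cell and a change in the number of cells of a type cannot be told apart.

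**Figure D1:**
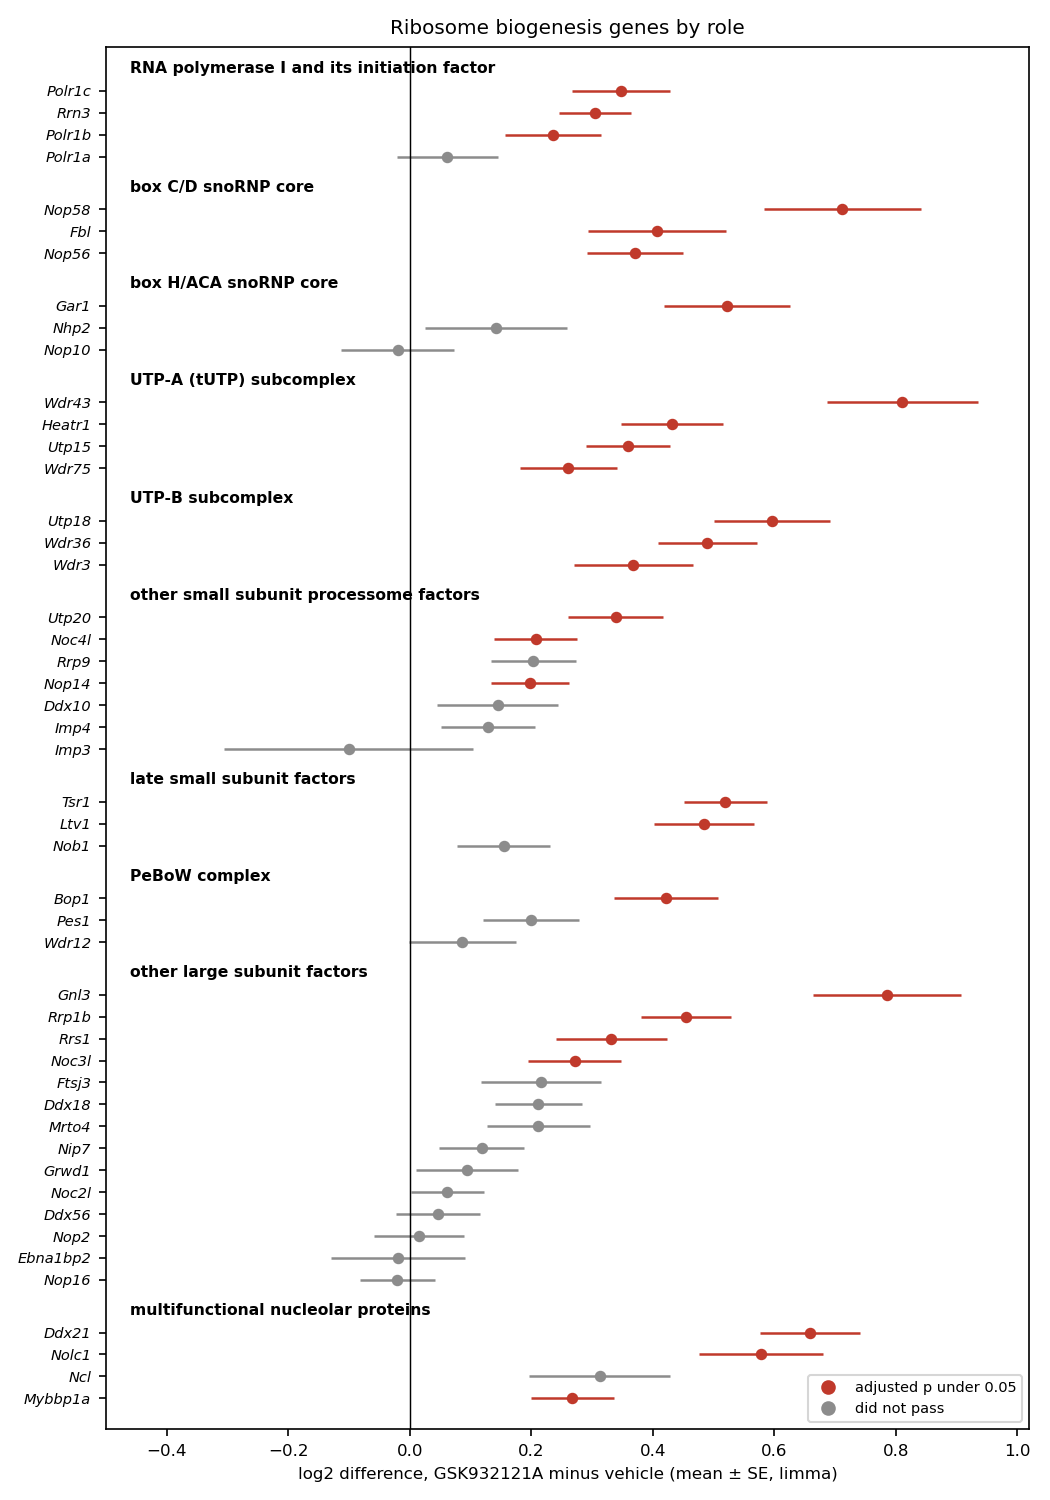
Log2 difference of each measured member, GSK932121A minus vehicle, grouped by role, with the limma standard error as the bar. Red points passed an adjusted p of 0.05 and grey points did not. All 27 red points lie right of 0, and the highest is Wdr43 at 0.81.

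RNA polymerase I opens the pathway, and 3 of 4 measured members of this class rose. Rrn3, the factor that makes the polymerase competent to initiate, had log2 values of 7.04 to 7.52 in treated livers, with a median of 7.32, against 6.82 to 7.13 in vehicle livers, with a median of 7.02. This gave a log2 difference of 0.30 ± 0.06 (SE), or 1.24-fold (limma, adjusted p = 0.000763), and 9 of 10 treated arrays exceeded every vehicle array. Polr1c, a subunit shared with RNA polymerase III, lay between 6.94 and 7.49 in treated livers (median 7.23) and between 6.49 and 7.19 in vehicle livers (median 6.87). Its difference was 0.35 ± 0.08 (SE; adjusted p = 0.00453), with 6 treated arrays above every vehicle array. Polr1b, the second largest subunit, spanned 5.94 to 6.66 after GSK932121A (median 6.28) and 5.87 to 6.27 after vehicle (median 6.03). It passed narrowly, with a log2 difference of 0.24 ± 0.08 (SE), or 1.18-fold (limma, adjusted p = 0.0497), and lost its call on removal of any of 17 single arrays, up to an adjusted p of 0.106. Polr1a, the largest subunit, had log2 values of 5.51 to 6.23 in treated livers, with a median of 5.94, against 5.53 to 6.24 in vehicle livers, with a median of 5.85, ranges that overlapped almost completely, with a difference of 0.06 ± 0.08 (SE; adjusted p = 0.719). With the surrogate variables none of these calls was kept: Rrn3 differed by 0.17, Polr1c by 0.18 and Polr1b by 0.11 (limma, adjusted p = 0.185, 0.402 and 0.628).

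The box C/D snoRNP places 2′-O-methyl groups on ribosomal RNA, and the RNA of all 3 of its measured core proteins rose. Nop58, a scaffold protein of the particle, lay between 6.32 and 7.37 in treated livers (median 6.92) and between 5.58 and 6.62 in vehicle livers (median 6.24). That is a log2 difference of 0.71 ± 0.13 (SE), or 1.64-fold (limma, adjusted p = 0.000374), with 7 treated arrays above all vehicle arrays. Fbl, fibrillarin, the methyltransferase of the particle, spanned 4.64 to 5.32 after GSK932121A (median 4.86) and 4.04 to 5.04 after vehicle (median 4.55). These are low values: Fbl is among 6 members whose vehicle mean lay below every array's median over the genes tested. Its difference was 0.41 ± 0.11 (SE; adjusted p = 0.0166), and 3 treated arrays cleared the vehicle range. Nop56, the other scaffold protein, had log2 values of 7.02 to 7.54 in treated livers, with a median of 7.29, against 6.55 to 7.10 in vehicle livers, with a median of 6.95, for a log2 difference of 0.37 ± 0.08 (SE), or 1.29-fold (limma, adjusted p = 0.00204). A second Nop56 probe set gave 0.31, near the 0.37 of the first. In the fit with surrogate variables all 3 lost the call, Nop58 with a difference of 0.41, Nop56 with 0.36 and Fbl with 0.29.

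The box H/ACA snoRNP, which makes pseudouridines, was uneven: the RNA of 1 of 3 measured core proteins rose. Gar1 lay between 4.69 and 5.54 in treated livers (median 5.10) and between 4.19 and 5.03 in vehicle livers (median 4.54). This amounted to a log2 difference of 0.52 ± 0.10 (SE), or 1.44-fold (limma, adjusted p = 0.00105). Nhp2 spanned 5.05 to 5.82 after GSK932121A (median 5.54) and 4.52 to 5.80 after vehicle (median 5.42) and did not pass, with a difference of 0.14 ± 0.12 (SE; adjusted p = 0.509). Nop10, the smallest core protein, had log2 values of 4.23 to 4.90 in treated livers, with a median of 4.49, against 4.00 to 4.94 in vehicle livers, with a median of 4.48, and its difference was -0.02 ± 0.09 (SE; adjusted p = 0.934). Nop10 and Gar1 were also dim. Gar1 lost its call with the surrogate variables, where it differed by 0.39 (adjusted p = 0.0872).

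The UTP-A subcomplex, also called tUTP, is the first part of the small subunit processome to join the precursor RNA. All 4 of its genes among the members rose. Utp4, a UTP-A subunit outside the members, rose as well (0.41, limma adjusted p = 0.000955). Wdr43, its member with the highest log2 difference here, lay between 6.84 and 8.04 in treated livers (median 7.57) and between 6.23 and 7.11 in vehicle livers (median 6.74). The result was a log2 difference of 0.81 ± 0.12 (SE), or 1.75-fold (limma, adjusted p = 5.69e-05), and 9 treated arrays lay above every vehicle array. Heatr1 spanned 5.65 to 6.26 after GSK932121A (median 5.77) and 5.06 to 5.70 after vehicle (median 5.44), which gave a log2 difference of 0.43 ± 0.08 (SE), or 1.35-fold (limma, adjusted p = 0.000776). Utp15 had log2 values of 6.54 to 7.07 in treated livers, with a median of 6.72, against 6.08 to 6.62 in vehicle livers, with a median of 6.36, a difference of 0.36 ± 0.07 (SE; adjusted p = 0.000763). A treated array, replicate 13, stood apart at 7.07. Wdr75 lay between 6.70 and 7.24 in treated livers (median 7.04) and between 6.48 and 7.14 in vehicle livers (median 6.71) and showed the smallest difference of the class, 0.26 ± 0.08 (SE; adjusted p = 0.0305), with 3 treated arrays above the vehicle range. Removal of any of 6 single arrays took its call, up to an adjusted p of 0.0625. Wdr43 and Heatr1 kept their calls with the surrogate variables, at differences of 0.49 and 0.48, and Utp15 and Wdr75 lost theirs, at 0.22 and 0.18.

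UTP-B binds next, and the 3 of its genes among the members rose too. Of its subunits outside the members, Pwp2 rose (0.32, limma adjusted p = 0.0034). Utp6 (0.29, limma adjusted p = 0.0557) and Tbl3 (0.10, limma adjusted p = 0.397) did not pass. Utp18 spanned 7.24 to 7.68 after GSK932121A (median 7.43) and 6.41 to 7.31 after vehicle (median 6.82). That gave a log2 difference of 0.60 ± 0.10 (SE), or 1.51-fold (limma, adjusted p = 9.89e-05), and with the surrogate variables the difference was 0.63 (adjusted p = 0.0011). Wdr36 had log2 values of 6.35 to 6.86 in treated livers, with a median of 6.52, against 5.86 to 6.54 in vehicle livers, with a median of 5.99, for a log2 difference of 0.49 ± 0.08 (SE), or 1.40-fold (limma, adjusted p = 0.000162). Wdr3 lay between 6.17 and 6.92 in treated livers (median 6.56) and between 5.79 and 6.76 in vehicle livers (median 6.21), a difference of 0.37 ± 0.10 (SE; adjusted p = 0.0128), and 2 treated arrays cleared the vehicle range. In that fit Wdr36 kept its call at 0.41, and Wdr3 lost it at 0.18.

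Of the 7 other small subunit processome factors, 3 rose. Utp20, a large scaffold, spanned 5.95 to 6.61 after GSK932121A (median 6.39) and 5.63 to 6.20 after vehicle (median 6.01), which gave a log2 difference of 0.34 ± 0.08 (SE), or 1.27-fold (limma, adjusted p = 0.00391). Noc4l, a partner of Nop14, had log2 values of 5.87 to 6.52 in treated livers, with a median of 6.20, against 5.78 to 6.09 in vehicle livers, with a median of 5.97, with a difference of 0.21 ± 0.07 (SE; adjusted p = 0.0452). Nop14 lay between 5.60 and 6.13 in treated livers (median 5.99) and between 5.60 and 5.88 in vehicle livers (median 5.78), with a difference of 0.20 ± 0.06 (SE; adjusted p = 0.0415). Both of these calls are thin. Noc4l lost its call on removal of any of 15 single arrays (up to an adjusted p of 0.0906) and Nop14 on removal of any of 13 (up to 0.086). Rrp9, which binds the U3 snoRNA, spanned 4.81 to 5.35 after GSK932121A (median 5.00) and 4.56 to 5.06 after vehicle (median 4.83), and stayed just outside the threshold at 0.20 ± 0.07 (SE; adjusted p = 0.0577). Ddx10, a helicase, differed by 0.15, Imp4 by 0.13 and Imp3, its U3-associated partner, by -0.10. The standard error of Imp3 was 0.20, against 0.08 for Imp4. All 3 calls were lost with the surrogate variables, where Utp20 differed by 0.23, Noc4l by 0.18 and Nop14 by 0.15.

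Late small subunit factors act as the particle leaves the nucleolus and matures in the cytoplasm, and 2 of 3 measured ones rose. Tsr1, a GTPase-like assembly factor, had log2 values of 6.50 to 7.02 in treated livers, with a median of 6.70, against 5.94 to 6.38 in vehicle livers, with a median of 6.18. Every treated array lay above every vehicle array, for a log2 difference of 0.52 ± 0.07 (SE), or 1.43-fold (limma, adjusted p = 7.81e-06). Its promoter is among those printed above with an E-box just after the start, as are those of Ebna1bp2 and Nop2, which did not pass. Ltv1, an export and assembly factor, lay between 5.70 and 6.21 in treated livers (median 6.01) and between 5.26 and 5.95 in vehicle livers (median 5.59), a difference of 0.48 ± 0.08 (SE; adjusted p = 0.00019), with 8 treated arrays above the vehicle range. Nob1, the endonuclease that trims the 3′ end of 18S rRNA, spanned 6.91 to 7.44 after GSK932121A (median 7.01) and 6.60 to 7.18 after vehicle (median 6.90) and did not pass, with a difference of 0.15 ± 0.08 (SE; adjusted p = 0.224). Tsr1 and Ltv1 kept their calls with the surrogate variables, at differences of 0.40 and 0.38.

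On the large subunit side, the PeBoW complex (Pes1, Bop1 and Wdr12) acts in processing of the precursor, and 1 of its 3 members rose. Bop1 had log2 values of 6.04 to 6.84 in treated livers, with a median of 6.52, against 5.75 to 6.30 in vehicle livers, with a median of 6.05, for a log2 difference of 0.42 ± 0.09 (SE), or 1.34-fold (limma, adjusted p = 0.00122). Pes1 lay between 5.60 and 5.93 in treated livers (median 5.76) and between 5.24 and 5.86 in vehicle livers (median 5.62), a difference of 0.20 ± 0.08 (SE; adjusted p = 0.11). Wdr12 spanned 6.00 to 6.71 after GSK932121A (median 6.31) and 5.99 to 6.53 after vehicle (median 6.34), a difference of 0.09 ± 0.09 (SE; adjusted p = 0.611). Bop1 lost its call with the surrogate variables, at a difference of 0.19 (adjusted p = 0.239).

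Among 14 other large subunit factors, 4 rose. Gnl3, nucleostemin, a nucleolar GTPase, had log2 values of 7.03 to 8.45 in treated livers, with a median of 7.64, against 6.59 to 7.24 in vehicle livers, with a median of 6.88. This made a log2 difference of 0.79 ± 0.12 (SE), or 1.72-fold (limma, adjusted p = 6.59e-05), and 9 treated arrays exceeded every vehicle array. Rrp1b lay between 5.44 and 6.02 in treated livers (median 5.76) and between 4.91 and 5.47 in vehicle livers (median 5.30), with a log2 difference of 0.45 ± 0.07 (SE), or 1.37-fold (limma, adjusted p = 0.000113). Rrs1, which helps to place the 5S RNP, spanned 5.70 to 6.28 after GSK932121A (median 5.97) and 5.04 to 5.92 after vehicle (median 5.78), a difference of 0.33 ± 0.09 (SE; adjusted p = 0.0153). Noc3l, which works with Noc2l in pre-60S particles, passed with 0.27 ± 0.08 (SE; adjusted p = 0.0178). Ddx18, a helicase, had log2 values of 6.44 to 7.03 in treated livers, with a median of 6.83, against 6.30 to 6.79 in vehicle livers, with a median of 6.59, and was the member nearest to the threshold from outside, 0.21 ± 0.07 (SE; adjusted p = 0.0515). It passed in several alternatives. The Ddx18 promoter holds an E-box, as do those of Ebna1bp2, Nop2 and Pes1, which did not pass either. Of the 4 that rose, Gnl3 kept its call with the surrogate variables at 0.52, while Rrp1b, Rrs1 and Noc3l lost theirs at 0.30, 0.24 and 0.16.

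The remaining 9 of that class did not pass. Ftsj3, a methyltransferase, differed by 0.22 and Mrto4, a ribosomal stalk assembly factor, by 0.21. Nip7 differed by 0.12, Grwd1 by 0.09, Noc2l by 0.06 and the helicase Ddx56 by 0.05. Nop2, a 28S rRNA methyltransferase used as a proliferation antigen in human tissue, differed by 0.01, Ebna1bp2 by -0.02 and Nop16 by -0.02. These last 3 showed values near 0, and the sign of each turned in some alternatives.

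Genes of multifunctional nucleolar proteins rose in 3 of 4 measured cases. Ddx21, an RNA helicase of rRNA transcription and processing, lay between 7.12 and 7.79 in treated livers (median 7.53) and between 6.43 and 7.17 in vehicle livers (median 6.84). That was a log2 difference of 0.66 ± 0.08 (SE), or 1.58-fold (limma, adjusted p = 4.09e-06), with 9 treated arrays above the vehicle range, and its second probe set gave 0.50. Nolc1, a snoRNP chaperone, spanned 5.67 to 6.78 after GSK932121A (median 6.26) and 5.31 to 6.09 after vehicle (median 5.71), for a log2 difference of 0.58 ± 0.10 (SE), or 1.49-fold (limma, adjusted p = 0.000296). Mybbp1a, a nucleolar MYB-binding protein, had log2 values of 6.68 to 6.99 in treated livers, with a median of 6.82, against 6.32 to 6.94 in vehicle livers, with a median of 6.52, a difference of 0.27 ± 0.07 (SE; adjusted p = 0.00921). Ncl, nucleolin, lay between 7.68 and 8.78 in treated livers (median 8.30) and between 7.61 and 8.52 in vehicle livers (median 8.11) and missed the threshold at 0.31 ± 0.12 (SE; adjusted p = 0.0828). Its second probe set gave 0.35, and the mean of both sets passed (adjusted p = 0.0183). With the surrogate variables Ddx21 kept its call at 0.63, and Nolc1 and Mybbp1a lost theirs at 0.40 and 0.17.

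**Figure D2:**
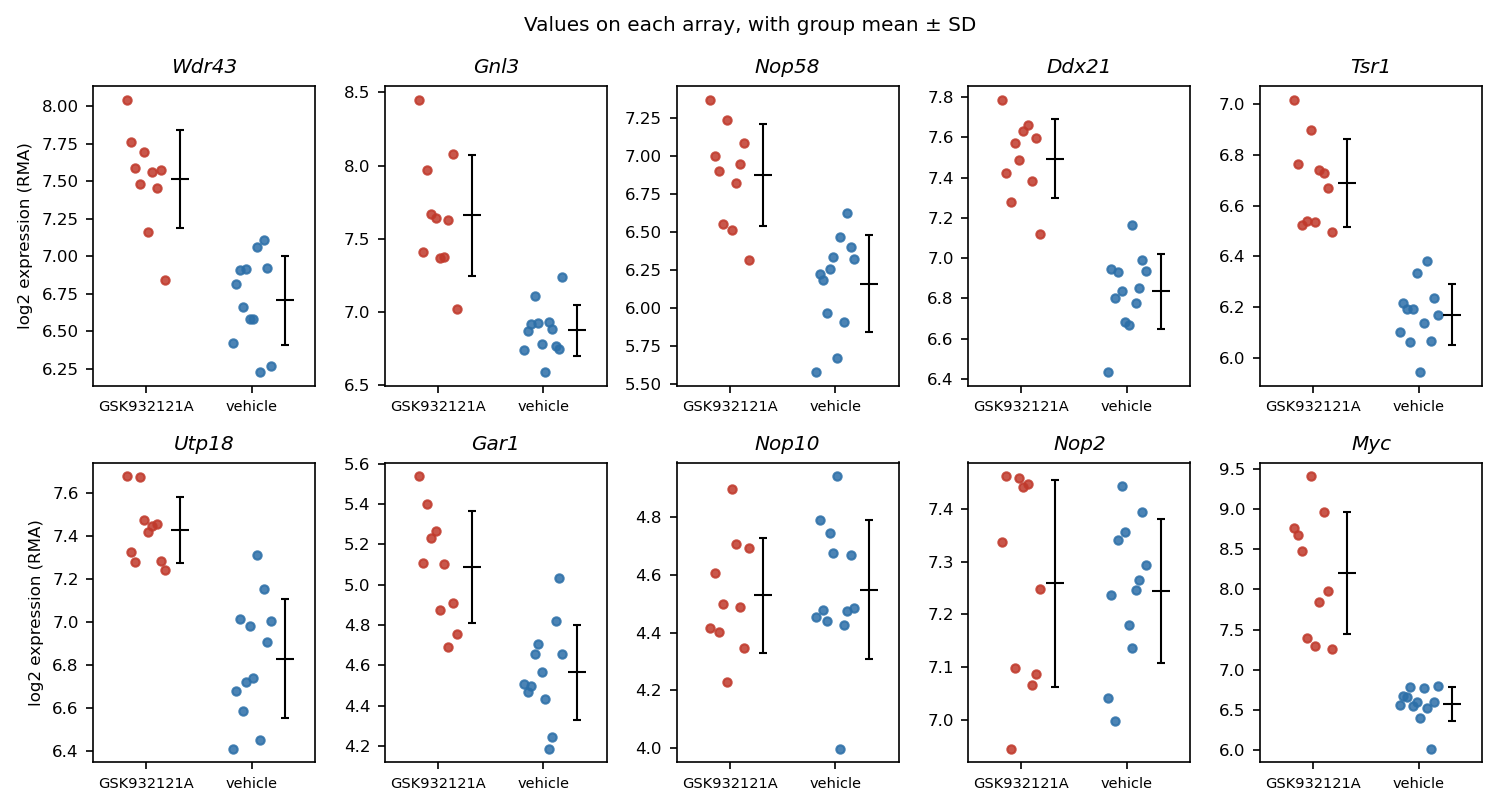
RMA log2 values of 9 members and Myc on each array, GSK932121A left and vehicle right, with the group mean and SD as the bar; each panel has its own axis. Treated arrays lie above the vehicle range for Tsr1 and Myc on all 10 arrays, while Nop10 and Nop2 overlap.

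On every treated array the members' median lay above their vehicle mean, by unequal amounts. The median of the members' deviations from the vehicle mean ran from 0.139 (replicate 24) to 0.480 (replicate 13) over the treated arrays, with a median of 0.257. Over the vehicle arrays it ran from -0.113 to 0.115. These 2 sets of array medians do not overlap. With each array first centred on its own median they do: treated replicate 24 stood at 0.134 and vehicle replicate 5 at 0.144. Members above their vehicle mean numbered 36 to 45 on treated arrays and 10 to 38 on vehicle arrays, which also overlap. Replicate 13 had 35 of 48 members above the highest vehicle array, while replicate 24 had 5. Over all genes the share above the vehicle range was 12.6% on replicate 13 and 6.10% on replicate 24, against 72.9% and 10.4% of members. The median deviation of all genes lay between -0.025 and 0.005 over the treated arrays. A vehicle array had between 0 and 9 members above every other vehicle array. The median ratio of treated to vehicle SD was 0.979 over members and 1.01 over all genes.

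**Figure D3:**
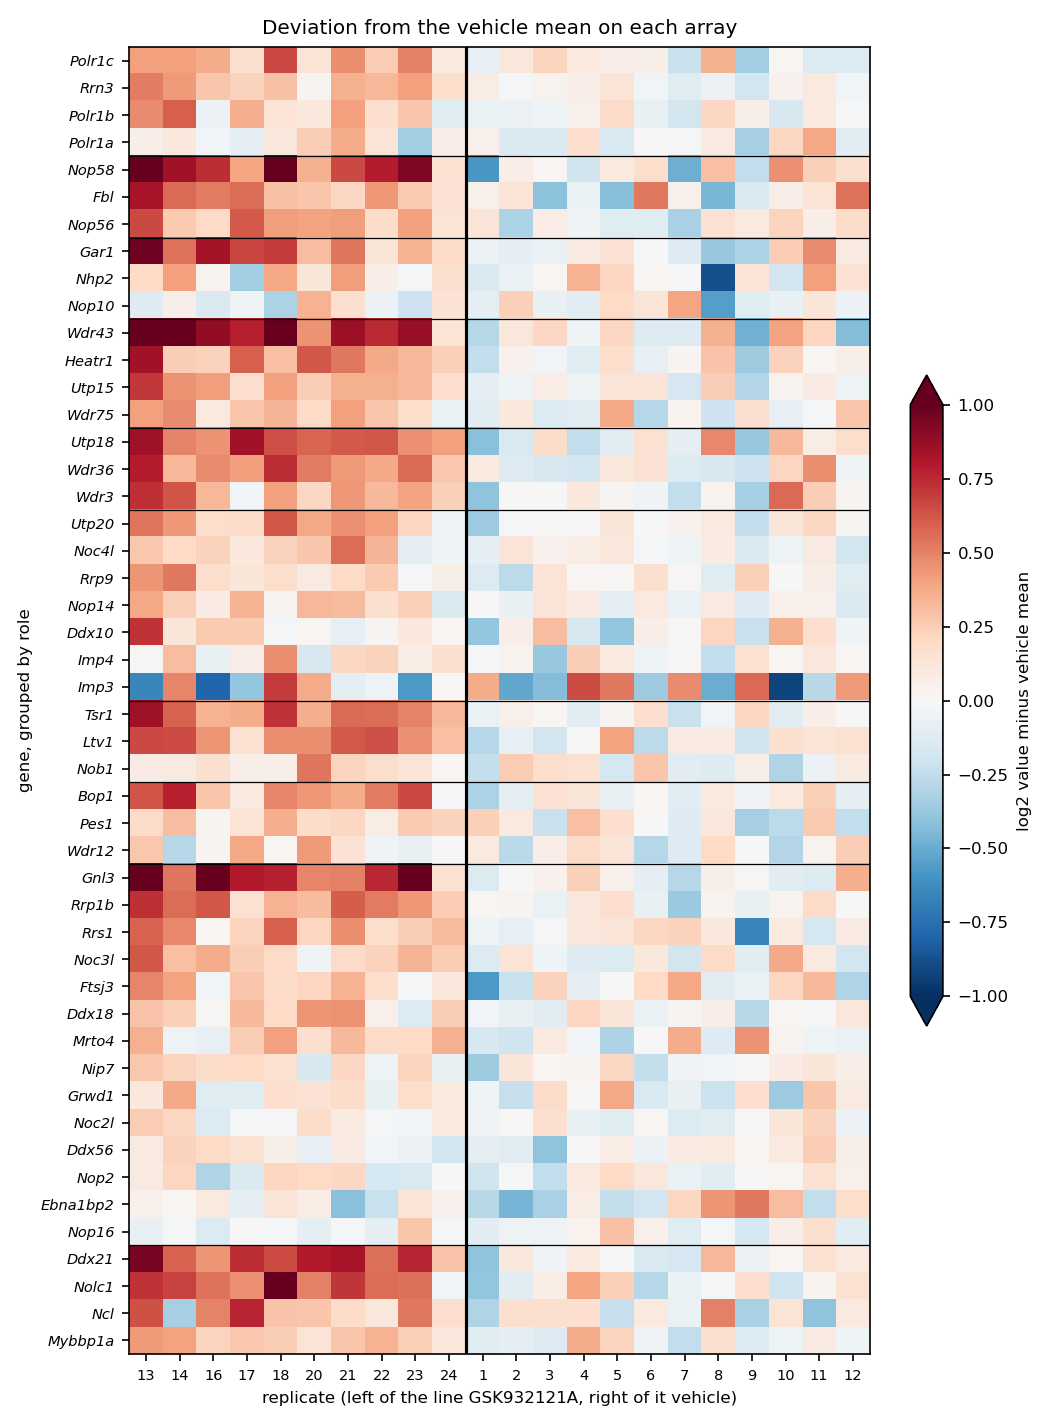
Deviation of every measured member from its vehicle mean on each array, in log2 units, with treated arrays left of the line and vehicle arrays right of it and members grouped by role. Replicate 13 is the darkest red column, with a median of 0.480, and replicate 24 the palest treated one, with 0.139.

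Measured log2 differences of genes of one complex were not always equal. Each gene was read from its own probe set, so unequal differences need not be unequal changes in RNA. The difference of log2 differences was tested for 27 pairs of partners by permuting the group labels 100000 times (two-sided), with adjustment over the 27 pairs, and 5 passed. Wdr43 exceeded its UTP-A partners among the members, while Utp4 was not in these pairs. The excess was 0.55 ± 0.14 (SE) over Wdr75 (adjusted p = 0.0111, permutation) and 0.45 ± 0.09 over Utp15 (adjusted p = 0.00675, permutation). Over Heatr1 it was 0.38 ± 0.12 (adjusted p = 0.0225, permutation). Gar1 exceeded its H/ACA partner Nop10 by 0.54 ± 0.15 (adjusted p = 0.0116, permutation) and Nhp2 by 0.38 ± 0.14 (adjusted p = 0.0461, permutation). Gar1 and Nop10 were both dim, with vehicle means of 4.56 and 4.55. The 25 alternatives for pairs were renewed quantile and cyclic loess normalisation, the mean of probe sets, and each of 22 arrays left out. Gar1 over Nhp2 passed in 9 of the 25, and the other 4 pairs in all of them. Values with the surrogate variables were added after the data were seen. With them, and with no test, Wdr43 exceeded Heatr1 by 0.01 ± 0.08 (SE), Utp15 by 0.27 ± 0.09 and Wdr75 by 0.31 ± 0.12, and Gar1 exceeded Nop10 by 0.26 ± 0.15 and Nhp2 by 0.33 ± 0.12. The excess of Wdr43 over Heatr1 was thus near 0 in that fit. For the other 22 pairs the test was not passed, which does not show equal change. Nop58 over Nop56, for example, was 0.34 ± 0.14 (adjusted p = 0.0632, permutation).

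**Figure D4:**
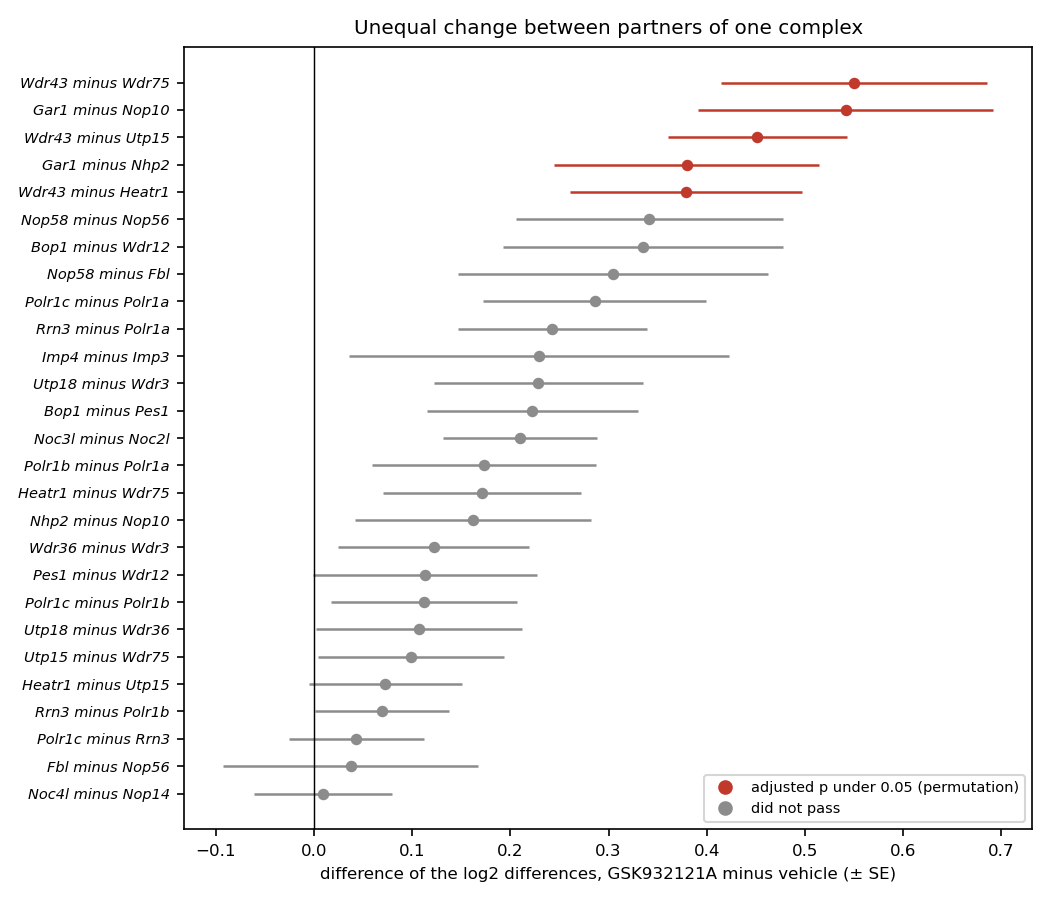
Difference between the log2 differences of 2 partners of one complex, first gene minus second, with its standard error, for 27 pairs. The partner with the larger log2 difference is put first, so the sign is fixed by that choice. The 5 red points passed the permutation test after adjustment and involve Wdr43 or Gar1.

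Within groups, partners of a complex were also correlated from liver to liver, without other gene pairs for comparison. The median Pearson r over 27 pairs was 0.338 among the 10 treated arrays and 0.324 among the 12 vehicle arrays, and 0 of these 54 correlations passed a permutation test after adjustment (3 treated and 5 vehicle pairs had an unadjusted p under 0.05). The closest treated pair was Wdr43 and Utp15, with r = 0.85 (permutation p = 0.00327, adjusted 0.0999) and Spearman's rho = 0.90 (permutation p = 0.00104, adjusted 0.0562), and r = 0.70 without the 2 arrays farthest from the median.

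Members of the small subunit pathway rose in 12 of 17 cases, with a median log2 difference of 0.34, and those of the large subunit pathway in 5 of 17, with a median of 0.20. The difference between these shares was not tested. Outside the 51, 7 of 30 small subunit factors rose, with a median of 0.15, and 19 of 39 large subunit factors, with a median of 0.19, also without a test of the difference. Among the first of these, Dcaf13 (1.67-fold), Nol10 (1.40-fold), Rcl1 (1.38-fold) and Utp4 (1.33-fold) had the largest differences, and among the second Gtpbp4 (1.82-fold), Urb2 (1.61-fold), Nifk (1.61-fold) and Ppan (1.48-fold). Gtpbp4 was dim, with a mean log2 value of 3.45 in treated livers and 2.59 in vehicle livers, below every array median. Other RNA polymerase I factors rose in 1 of 11 cases (Polr1f, 1.31-fold), exosome and RNase MRP genes in 4 of 21 (Pop4, 3.00-fold, Rpp38, 1.31-fold, Rpp14, 1.27-fold, and Dis3, 1.21-fold), and snoRNP assembly factors in 1 of 9 (Naf1, 1.35-fold). Over these 5 lists 32 of 110 genes rose and 0 fell (5 fell at an unadjusted p under 0.05, and 1 by Welch's test). Of all genes tested, 5.31% rose and 7.05% fell, so 1 call in a list of 9 or 11 genes says little about that list.

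Few genes of the ribosomal proteins themselves rose. These lists were added after the data were seen, and each is given because the counts depend on which symbols are taken. Of 127 genes with a cytosolic ribosomal protein symbol, copy-like symbols included, 2 rose and 6 fell, with a median log2 difference of -0.05. Without copy-like symbols, 55 genes remained, of which 1 rose and 3 fell, with a median of -0.08. Of 71 mitochondrial ribosomal protein genes, 1 rose and 8 fell, with a median of -0.10. These shares stand beside 5.31% of all genes that rose and 7.05% that fell.

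Myc, the transcription factor that binds the E-box, was higher in every treated liver. Myc spanned 7.25 to 9.41 after GSK932121A (median 8.23) and 6.02 to 6.79 after vehicle (median 6.60). Its mean was 8.20 ± 0.76 in treated livers and 6.58 ± 0.21 in vehicle livers (SD; 10 and 12 arrays). The fold was 3.09, with an adjusted p of 4.99e-06 in limma. Of 9 measured genes of its network, Mnt also rose (1.28-fold), Mxi1 (1.33-fold) and Mxd4 (1.24-fold) fell, and the others did not pass. Whether Myc has a part in the members' rise was not tested.

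E-box matches stood in 9 of 24 windows of members that rose (37.5%) and in 4 of 22 windows of members that did not pass (18.2%). In the shorter window of 100 bases before and 50 after the start these shares were 29.2% and 18.2%. The ETS core stood in 54.2% and 40.9% of these windows over the whole window, and the GC box in 75% and 50%. None of these splits was tested. The ETS core, CCGGAAG, stood in 46.9% of member windows and 12.2% of windows of genes tested. The GC box, whose letters are GGGCGG, stood in 63.3% against 47.3%, but in the shorter window in 34.7% against 37%. The NRF1 core, GCATGCG, stood in 10.2% against 4.6%, and the cyclic AMP response element, TGACGTCA, in 2.04% against 2.33%. The ATF4 element, searched as TGATGNAAT, was in 0 of 49 member windows and 0.754% of windows of genes tested. Both strands were searched. Median GC content was 56% in member windows and 57% in those of genes tested.

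**Figure D5:**
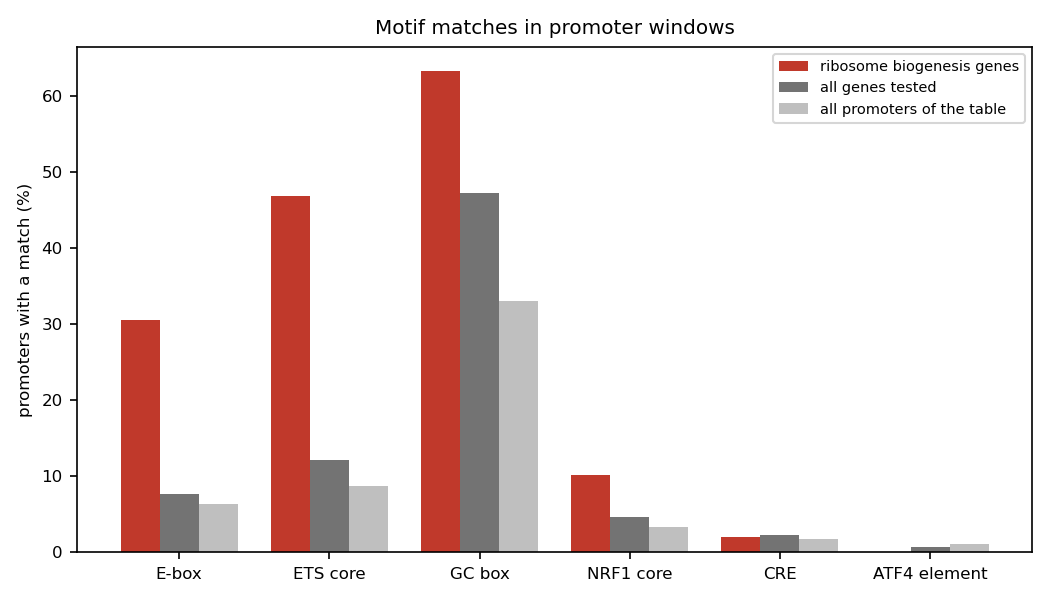
Percent of promoter windows with at least 1 match to each of 6 motifs on either strand, for the ribosome biogenesis genes, all genes tested and all promoters of the table. E-box matches stand at 30.6%, 7.68% and 6.42%, and ETS cores at 46.9%, 12.2% and 8.75%.

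Many snoRNAs are cut from introns of host genes. Some members have snoRNA genes within their bounds, by position alone, with strand and intron not checked. In GRCr8 this held for Nop56 and Nop58 (5 each), Wdr43, Gnl3 and Ncl (3 each) and Tsr1 (2). The list was added after the data were seen. Of these 6 members 5 rose, with a median log2 difference of 0.62. Of the other 42 members 22 rose, with a median of 0.21. Among other tested genes, 29 of 344 with a snoRNA gene inside rose (8.43%), and 901 of 17109 without one (5.27%).

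Of 18 measured proliferation genes 2 rose (11.1%), Mcm4 (1.21-fold) and Pcna (1.35-fold), against 5.31% of all genes, and 0 passed by Welch's test (4 at an unadjusted p under 0.05 in limma). Markers of liver cell types were compared because the tissue is mixed. Averaged over its list, the log2 level of hepatocyte markers lay between 12.03 and 12.16 in treated livers and between 11.97 and 12.15 in vehicle livers. In hepatocytes 1 of 6 markers rose (Cps1), in Kupffer cells and macrophages 1 of 7 (Cd163) and in endothelial cells 1 of 3 (Lyve1). Neutrophil markers (0 of 5), lymphocyte markers (0 of 7), stellate cell markers (0 of 6), cholangiocyte markers (0 of 5) and the single erythroid marker did not pass limma's threshold, with 0, 4, 1, 0 and 0 at an unadjusted p under 0.05. The Kupffer cell list averaged 7.45 to 7.99 in treated livers and 7.39 to 8.01 in vehicle livers, and the endothelial list 8.11 to 8.34 in treated livers and 8.00 to 8.29 in vehicle livers. Neutrophil levels ran from 3.62 to 4.65 in treated livers and from 3.59 to 4.23 in vehicle livers, so the array ranges of these lists overlapped. Their part in the members' rise was not tested.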

How the data were processed

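Liver RNA was measured on 22 arrays, 10 after GSK932121A and 12 after vehicle. The deposited values are log2 expression values made by RMA (background correction, normalisation across arrays and a probe set summary), as the submitters' processing notes record. Its software is not given in the sources used here. Values ran from 0.67 to 13.77. The number of arrays limits the precision. Such normalisation removes a shift common to all genes. The labels give no batch. The p-values of group differences weigh them against the spread between these animals.

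Groups came from the sample titles. Of 36685 probe sets, 18511 had 1 symbol, 575 several and 17599 none, and the brightest single-symbol probe set stood for each of 18166 genes. Groups were compared in limma 3.58.1 (R 4.3.3) by a fit of group alone, with Benjamini-Hochberg adjustment over all genes and a threshold of 0.05. Folds were computed by raising 2 to the log2 difference. Partners of a complex and correlations were tested by permutation in Python 3.11.15 (numpy 2.4.6, pandas 2.3.3, scipy 1.17.1), with plots in matplotlib 3.10.9. Alternatives were other normalisations, a filter at a mean log2 value of 5, other probe set rules, variance models, Welch's test, 5 surrogate variables and each array left out.

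The members and lists were chosen with earlier results of these data known. Every member is named, and so are Utp4, Utp6, Tbl3 and Pwp2, UTP-A and UTP-B subunits outside the members. Values over arrays are given for all members of role classes of 4 or fewer, for the 3 with the smallest p in larger classes and for the 3 just inside and outside the threshold; of other lists, up to 4 called genes with the largest difference are named, with Myc. Lists of ribosomal proteins and of genes with a snoRNA gene inside were added later, with the values in view. The ribosomal protein list was first taken with copy-like symbols and then, once those counts had been seen, also without them; both are given. Exposure of single animals was not used here.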

Additional observations from a re-analysis of the deposited data

Results flagged for a closer look

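A total of 4 members had a treated array far above the rest of its group, where the gap to the next array exceeded Dixon's critical value of 0.466 of the group's range. Utp15 stood at 7.07 and Ddx10 at 6.40 on replicate 13, Nob1 at 7.44 on replicate 20, and Nop16 at 6.00 on replicate 23. The next treated arrays stood at 6.82, 5.94, 7.12 and 5.72. Of 49 genes examined this way (the 48 members and Myc) 4 were marked, and chance marks about 1 in 20. Of the 4 marked genes, Utp15 is the one that rose. Vehicle arrays were not examined this way. Some vehicle values stood low, for example Nhp2 (4.52, replicate 8), Rrs1 (5.04, replicate 9), Rrp1b (4.91, replicate 7) and Myc (6.02, replicate 10). The next vehicle arrays stood at 5.22, 5.51, 5.21 and 6.40. Rrs1, Rrp1b and Myc are among the genes that rose.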

How the results depend on the processing

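The count of members that rose was 23 to 29 in every alternative but one, against 27: with 5 surrogate variables it was 9, and 8 of the 27 calls were kept (Utp18, Ddx21, Heatr1, Wdr43, Tsr1, Ltv1, Gnl3 and Wdr36), with Ddx18 added. The 19 lost had adjusted p between 0.0511 (Nop58) and 0.628 (Polr1b). The cause was not tested. Over all genes 1.84% rose in that fit, against 5.31%. Among genes with a mean log2 value of at least 5, 963 of 10410 rose (9.25%), and 26 of 44 members. With single arrays left out, the count ran from 23 to 28 and the median log2 difference from 0.239 to 0.280, and called partner pairs from 4 to 11, against 5 (without GSK932121A replicate 20, 10; without GSK932121A replicate 24, 11; without vehicle replicate 2, 9; without vehicle replicate 8, 8). Differences near 0 that had not passed changed sign. Renewed quantile normalisation gave 0.0094 for Nop16 and 0.0010 for Ebna1bp2, cyclic loess gave 0.0021 and 0.0127, and the surrogate variables gave 0.1244 for Nop10 and -0.0244 for Ddx56. Leaving out single arrays gave Ebna1bp2 -0.0622 to 0.0279, Nop10 -0.0697 to 0.0164, Nop16 -0.0532 to 0.0066, Nop2 -0.0077 to 0.0496. Calls lost elsewhere were Polr1b, Wdr75, Nop14 and Noc4l with all probe sets in 1 fit, Polr1b with array weights, and Polr1b and Noc4l by Welch's test. No paired analysis was possible because the groups share no replicate numbers. E-box matches stood in 12 of 49 windows, against 15, when the window was shortened (24.5% against 30.6% of windows), and in 4.55% against 7.68% of windows of genes tested. Dim members, such as Fbl and Gar1, which the filter leaves out, have the least room above background.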
